A study of Mus musculus with 12 samples.

Results

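The collagen chain genes of the mouse genome encode the alpha chains that trimerise into collagens, and 44 of them were listed in the deposited gene tables, out of 55573 genes. They were taken by symbol alone (Col, a number, the letter a and a number, with pseudogenes left out), so no measured value decided which chains belong. The choice of this gene family and of its classes was made with earlier results of these data known. By class there were 11 fibrillar, 6 basement membrane network, 9 fibril-associated, 6 beaded filament, 4 transmembrane, 3 short-chain network and 2 multiplexin chains, 1 anchoring fibril chain and 2 others. The source was PB3, a line of mouse breast cancer cells labelled Er-/Pr-/Her2- (negative for the estrogen and progesterone receptors and HER2), whose polyadenylated RNA was sequenced in 4 groups with 3 libraries each. The Control group is PB3-Parental, labelled untreated. The other lines are PB3-ERI-R, labelled with Erubilin (eribulin in the protocol), PB3-PAC-R, labelled with paclitaxel, and PB3-VIN-R, labelled with vinorelbine, all 3 of which act on microtubules. All groups were grown in DMEM/F12 medium with 5% ABS, and the resistant clones had been made with their drug at 300, 500 and 800 nM. The labels do not say how many clones a line stands for, whether drug was present at harvest or whether the numbered replicates are independent cultures. A p-value here therefore covers only the variation among these libraries, which may be technical.

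Collagens are the main structural proteins of the extracellular matrix. Fibrillar chains (types I, II, III, V and XI) build the cable-like fibrils of connective tissue and cartilage, and fibril-associated chains (types IX, XII and XVI) sit on fibril surfaces and link them to other matrix. Type IV chains form the sheet-like network of basement membranes, which separates mammary epithelium from stroma, type VII forms the fibrils that anchor a basement membrane to the stroma beneath, and type XVII is a transmembrane collagen of the hemidesmosome. Fibroblasts make most fibrillar collagen of a breast tumour, while tumour cells of mesenchymal character can express collagens themselves.

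Each library held between 11141028 and 13454395 expected counts, and at these depths 3 counts correspond to between 0.217 and 0.316 CPM (counts per 1000000, scaled here with TMM factors). Floors and intervals given here cover counting error only. The libraries fell apart in transcripts of other cells: Ptprc, the leukocyte antigen CD45, lay at 0 to 0.0723 CPM in 4 libraries (replicate 1 of Control and replicate 3 of each resistant line) and at 59.1 to 384 CPM in the other 8 libraries. The summed level of the 17 leukocyte markers was 5.85 to 12.7 CPM in those 4 libraries and 598 to 4062 CPM in the 8, with the T cell gene Cd3e at 0 in all 12. ERI-R 3 stood apart further, with the lowest TMM factor (0.855) and the lowest share of counts in collagen chains (0.0379%, against 0.0664% and 0.0797% in the other ERI-R libraries and 0.113% to 0.276% outside ERI-R). Of the receptor genes behind the label, Pgr lay at 2.00 to 8.61 CPM in ERI-R and at 0 to 0.959 CPM elsewhere, Esr1 at 5.05 to 14.3 CPM and Erbb2 at 16.8 to 52.8 CPM.

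The collagen repertoire of the eribulin-selected line differed from that of the other 3 groups, and it did so in both directions. Chains of the basement membrane network (Col4a1, Col4a2, Col4a3, Col4a4), of fibrils (Col5a1), of anchoring fibrils (Col7a1) and of the short-chain network (Col8a1) were lower in ERI-R, together with the beaded filament chain Col6a4. The cartilage-type chains Col2a1, Col9a1, Col9a3 and Col11a1, the hemidesmosomal Col17a1 and the short-chain Col8a2 were higher. Calls are from edgeR's quasi-likelihood test, with p-values adjusted (Benjamini-Hochberg) over the 14226 genes that passed a filter on low counts and a threshold of 0.05. Of the 44 chains, 30 passed that filter. Against Control 16 of the 30 were called, 6 higher and 10 lower, or 53.3%, beside 19.2% of all genes tested (9.51% higher and 9.69% lower). Against PAC-R 20 were called, 7 higher and 13 lower, beside 18.7% of all genes (9.19% and 9.55%). Against VIN-R 14 were called, 6 higher and 8 lower, beside 19.3% of all genes (9.55% and 9.74%). The ERI-R libraries did not overlap those of Control for 18 of the 30 chains (all genes 35.7%), of PAC-R for 24 (29.3%) and of VIN-R for 19 (30.4%). The median log2 fold change of the 30 was -0.87, -1.72 and -0.81 in the same order, where that of all genes was 0.00, -0.05 and -0.03. The 14 chains named above were called in all 3 of these comparisons with the same sign, 20 chains were called in at least 1 and 10 in none. The comparisons share the ERI-R libraries, and the share of all genes called in all 3 was not counted. Some low chains entered the test through ERI-R: Col2a1, Col8a2, Col9a1, Col9a3 and Col17a1 reached the filter's level of 0.838 CPM (before TMM scaling) in fewer than 3 libraries outside ERI-R. These 5, all among the 6 higher calls, had to differ to be tested. In the other direction, Col4a3, Col4a4, Col6a4 and Col23a1, all called lower against Control, reached that level in 0 ERI-R libraries and entered through the other groups. Col6a4 reached it in only 3 libraries. The counts and medians therefore describe the chains that passed and support nothing about all members.

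**Figure D1:**
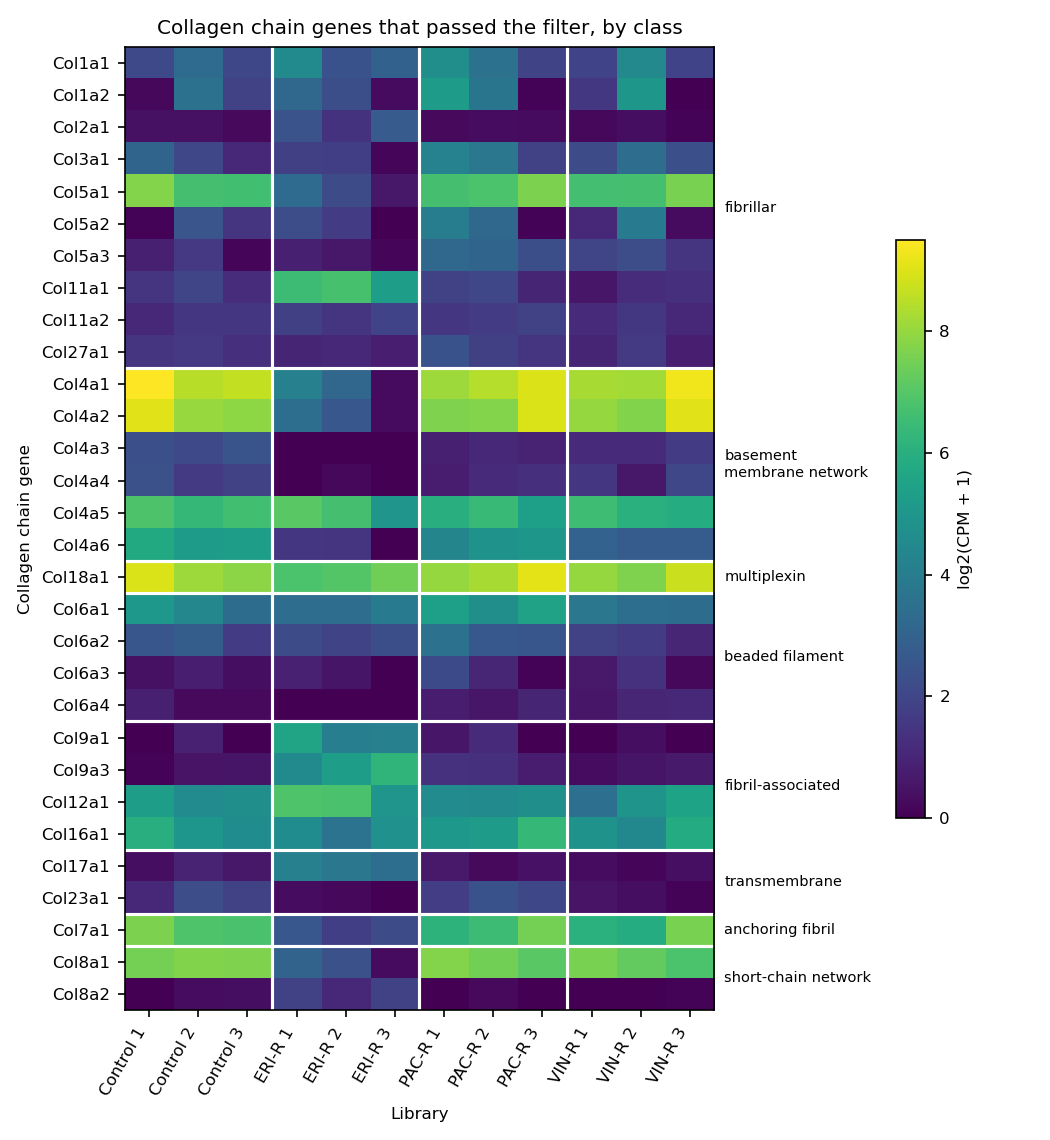
Level of the 30 collagen chain genes that passed the filter (rows, grouped by class) in each of the 12 libraries (columns, grouped by line), as log2(CPM + 1). The ERI-R columns are darker than the rest for Col4a1, Col4a2, Col5a1, Col7a1 and Col8a1 and brighter for Col11a1, Col9a1, Col9a3 and Col17a1, and Col1a2 and Col5a2 are darkest in the 4 libraries without leukocyte transcripts.

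Without the 4 libraries that lacked leukocyte transcripts, a setting chosen after seeing the data, 16 of the 29 chains then tested were called against Control (all genes 22.7%), 19 against PAC-R (22.8%) and 16 against VIN-R (24.0%). Of the 16 called against Control in all libraries, 14 were among them. With a leukocyte score as a covariate the counts were 18, 22 and 18 (all genes 31.1%, 28.4% and 29.5%), and without ERI-R 3 alone they were 17, 20 and 16 (all genes 19.3%, 20.0% and 19.9%). Some markers of stromal cells also differed in ERI-R: the 12 fibroblast markers summed to 106 to 201 CPM there and to 516 to 2313 CPM in the other 9 libraries, carried by S100a4 and Fbln2. Of the 12, 4 were lower in every ERI-R library than in all others (S100a4, Fbln2, Pdgfrb and Twist2; all genes 12.8%) and 1, Postn, was higher (99.2, 62.1 and 22.9 CPM against 0.148 to 16.2 CPM; all genes 11.3%). Pdgfra overlapped, at 59.0, 23.6 and 16.9 CPM in ERI-R and 10.5 to 36.0 CPM elsewhere. The fibroblast genes Dpt, Lum and Thy1 lay at 0, at most 0.288 and at most 0.274 CPM. The 9 endothelial and pericyte markers summed to 0.842 to 10.1 CPM in ERI-R and 14.5 to 104 CPM elsewhere, carried by Rgs5, with Cldn5 at 0 in all 12 libraries. Only Rgs5 of the 9 (11.1%, beside 12.8% of all genes) was lower in every ERI-R library than in all others, and none was higher in every one. Tek lay at 0.762, 1.91 and 0 CPM in ERI-R 1 to 3 and at most 0.217 CPM elsewhere. The 10 epithelial markers summed to 1085 to 4881 CPM over the 12 libraries, a sum carried by Krt8 and Krt18, which overlapped between ERI-R and the rest. The other 8 were higher in every ERI-R library than in all others. Among them Cdh1 lay at 320.4, 297 and 94.4 CPM in ERI-R and at most 12.9 CPM elsewhere, Epcam at 234, 244 and 228 CPM against at most 10.2 CPM, and Krt14 at 129, 274 and 924 CPM against at most 5.70 CPM. The part of these markers in the collagen differences was not tested. In RNA from whole cultures, fewer cells that express a gene and less RNA of it per cell cannot be told apart.

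Of the 6 type IV chains, which form the network of basement membranes, 5 were called lower in ERI-R than in Control and none higher. Of all genes, 9.69% were called lower and 9.51% higher. The median log2 fold change over the 6 was -5.72, where that of all genes was 0.00. Col4a1 (chr8:11198423-11312826, GRCm38) and Col4a2 (chr8:11312805-11449287) encode the ubiquitous trimer of basement membranes. Col4a1 lay at 727, 361 and 399 CPM in Control 1 to 3 and at 16.7, 7.86 and 0.210 CPM in ERI-R 1 to 3. PAC-R had 277, 349.6 and 519 CPM and VIN-R 306, 291 and 635 CPM. The ERI-R libraries were below all 9 others, and ERI-R 3 was far below the other ERI-R libraries. The log2 fold change against Control was -5.90 (SE 1.12, adjusted p = 0.0042), against PAC-R -5.53 (SE 1.10, adjusted p = 0.0056) and against VIN-R -5.63 (SE 1.11, adjusted p = 0.0046). The first was -5.19 with ERI-R 3 left out and -6.91 with ERI-R 1 left out, and the call against PAC-R was lost in a fit of those groups alone (adjusted p = 0.055).

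Col4a2 shared the gap between ERI-R and the rest, with 535, 259.8 and 236 CPM in Control and 9.83, 4.96 and 0.210 CPM in ERI-R. Its log2 fold change against Control was -6.09 (SE 1.10, adjusted p = 0.0033), or -5.40 with ERI-R 3 left out, -7.01 with ERI-R 1 and -5.50 with Control 1 left out. In PAC-R it lay at 201, 214 and 502 CPM and in VIN-R at 254, 206 and 544 CPM, all above ERI-R (log2 fold changes of ERI-R of -5.92, SE 1.09, adjusted p = 0.0038, and -6.06, SE 1.09, adjusted p = 0.003). The genes lie head to head, on opposite strands, with annotated starts that overlap by 22 bases. On the length-corrected scale of the deposited TPM (transcripts per 1000000) the ratio of Col4a1 to Col4a2 was between 1.17 and 2.67 in every library. The 2.67 was that of ERI-R 3, where each gene had 2 counts, too few to show that the ratio held. In ERI-R 1 and 2 the ratio was 2.12 and 2.03. Apart from ERI-R 3, the pair thus moved together over levels that ranged for Col4a1 from 2.78 to 212 TPM.

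Col4a3 and Col4a4, the chains of the kidney and lung type of network, also lie head to head on chromosome 1, with starts 72 bases apart. Col4a3 was low throughout, at 4.05, 3.27 and 4.55 CPM in Control and 0 in all 3 ERI-R libraries, which with a floor of 3 counts over the group makes it at least 47.1-fold lower in ERI-R. Against PAC-R (0.767 to 1.10 CPM) it was at least 11-fold lower and against VIN-R (1.17 to 2.21 CPM) at least 18.6-fold lower, all called (adjusted p = 0.00036, 0.0009 and 0.00049). Col4a4 lay at 4.19, 2.10 and 2.71 CPM in Control and had 2 counts in ERI-R in all, both in ERI-R 2. The ratio of Control to ERI-R was 54.8 with a 95% counting interval of 14.8 to 458 (adjusted p = 0.0034), and it was 20.5 (5.33 to 175) for PAC-R and 33.8 (9.02 to 285) for VIN-R. Both genes were therefore at or near 0 in ERI-R, but from starting levels of a few CPM. The Col4a4 call against PAC-R was lost in the 8 libraries with leukocyte transcripts (adjusted p = 0.065).

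The third head-to-head pair, Col4a5 and Col4a6 on chromosome X with starts 1309 bases apart, did not move together. Col4a5 lay at 114, 78.9 and 98.6 CPM in Control, 134, 104 and 30.1 CPM in ERI-R, 62.6, 82.8 and 40.1 CPM in PAC-R and 92.3, 65.4 and 58.8 CPM in VIN-R. Its groups overlapped and it was not called in any comparison (ERI-R against Control log2 fold change -0.12, SE 0.479, adjusted p = 0.91). Col4a6, its neighbour, lay at 53.3, 36.0 and 39.3 CPM in Control and at 1.83, 1.68 and 0 CPM in ERI-R. That is a log2 fold change of -5.16 (SE 0.864, adjusted p = 0.0023), or -4.46 without ERI-R 3. PAC-R kept an intermediate level of 19.3, 27.9 and 31.8 CPM, above ERI-R by the test (log2 fold change of ERI-R -4.45, SE 0.839, adjusted p = 0.0043; adjusted p = 0.061 in a fit of these groups alone). VIN-R had 6.86, 5.85 and 5.83 CPM, between PAC-R and ERI-R with no overlap on either side. The difference of VIN-R from Control was -2.79 on the log2 scale (SE 0.766, adjusted p = 1) and that of ERI-R from VIN-R -2.36 (adjusted p = 0.058), neither called. DESeq2 called both (adjusted p = 0.0009 and 0.00097). The second was also called with limma-voom (-3.35, adjusted p = 0.029), with the leukocyte score (-2.33, 0.014), in the 8 libraries with leukocyte transcripts (-1.75, 0.0056) and without ERI-R 3 (-1.68, 0.0046).

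In TPM, Col4a5 stood 2.33 to 3.26 times above Col4a6 in Control and 1.52 to 4.62 times in PAC-R. In VIN-R the ratio was 11.3 to 21.9, and in ERI-R it was 86.4 and 81.0, with Col4a6 listed at 0 in ERI-R 3. The ratios of VIN-R and of the ERI-R libraries with a value lay above every Control and PAC-R ratio. The bases just before the starts of both genes are shown because these neighbours moved apart. They are from RefSeq (GRCm38.p6), 5′ to 3′ on each gene's strand and outside annotated exons, at chrX:141475169-141475384 for Col4a5 and chrX:141474077-141474326 for Col4a6. Capitals mark matches, on either strand, to 4 motifs: the E-box CACCTG, the TATA motif TATAAA, the GC box motif GGGCGG and the CCAAT motif.
Col4a5: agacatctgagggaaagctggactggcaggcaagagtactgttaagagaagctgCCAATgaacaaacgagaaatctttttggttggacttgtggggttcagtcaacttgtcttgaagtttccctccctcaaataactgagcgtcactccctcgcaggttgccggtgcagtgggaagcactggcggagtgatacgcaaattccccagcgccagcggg
Col4a6: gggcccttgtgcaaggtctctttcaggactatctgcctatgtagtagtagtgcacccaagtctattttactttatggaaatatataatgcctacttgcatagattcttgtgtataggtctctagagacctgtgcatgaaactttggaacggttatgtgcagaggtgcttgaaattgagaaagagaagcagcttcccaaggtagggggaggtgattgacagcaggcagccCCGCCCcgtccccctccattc
The Col4a5 stretch of 216 bases held 1 CCAAT match and the Col4a6 stretch of 250 bases 1 GC box. Of 32851 RefSeq windows of 250 bases before a start, 33.8% held the CCAAT motif, 32.7% the GC box, 17.2% the E-box and 12.4% the TATA motif, so such matches are common, and a match describes the letters and no more. Of the 35 chains with such a window, 13 held the CCAAT motif, 21 the GC box, 4 the E-box and 5 the TATA motif in at least 1 window. A chain can have more than 1 window, so these counts of chains cannot be set against the shares of single windows.

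**Figure D2:**
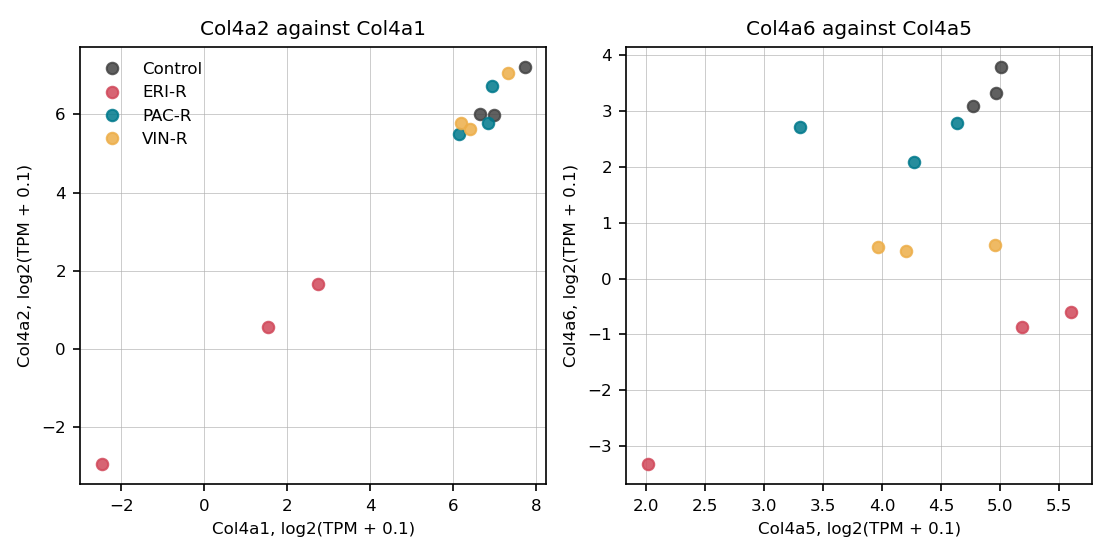
Level of the second gene against the first for the neighbouring pairs Col4a1 and Col4a2 (left) and Col4a5 and Col4a6 (right), as log2(TPM + 0.1), with 1 point per library coloured by line. Col4a1 and Col4a2 lie along 1 line, whereas Col4a6 is lower in VIN-R and ERI-R than in Control and PAC-R. Col4a5 of VIN-R lies within the range of Control and PAC-R. In ERI-R Col4a5 is at 48.4, 36.4 and 3.93 TPM, outside the 9.76 to 32.0 TPM of the other libraries.

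Col7a1 and Col8a1 were lower in ERI-R too. Col7a1 (chr9:108953586-108984875), the anchoring fibril chain, lay at 197, 118 and 109 CPM in Control and at 5.03, 2.44 and 3.58 CPM in ERI-R. PAC-R had 70.3, 91.1 and 185 CPM and VIN-R 66.7, 58.0 and 193 CPM. All 3 ERI-R libraries were below the rest and, unlike Col4a1, ERI-R 3 lay within the range of the other ERI-R libraries. The log2 fold changes of ERI-R were -5.26 against Control (SE 0.642, adjusted p = 0.00058), -4.97 against PAC-R (SE 0.633, adjusted p = 0.00073) and -4.84 against VIN-R (SE 0.629, adjusted p = 0.00063), the last being -4.09 without VIN-R 3.

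Col8a1 (chr16:57624258-57754737), a chain of the hexagonal short-chain network first known from vessel and corneal endothelium, lay at 182, 209 and 202 CPM in Control and at 7.24, 4.12 and 0.210 CPM in ERI-R. PAC-R had 212, 176 and 133 CPM and VIN-R 194, 149 and 112 CPM. The log2 fold change against Control was -5.67 (SE 0.886, adjusted p = 0.0017), -6.46 with ERI-R 1 left out and -4.98 with ERI-R 3 left out. Against PAC-R it was -5.48 (SE 0.878, adjusted p = 0.0019) and against VIN-R -5.29 (SE 0.871, adjusted p = 0.0018). Its partner chain Col8a2 was near 0 outside ERI-R, at 0 to 0.262 CPM, and lay at 2.67, 1.14 and 2.63 CPM in ERI-R. Col8a2 reached the filter's level in 0 libraries outside ERI-R, so it had to differ to be tested. The fitted rise of Col8a2 over Control was 3.61 (SE 1.05, adjusted p = 0.034), and it was lost without ERI-R 1 (adjusted p = 0.07), without Control 1, 2 or 3 (adjusted p = 0.086, 0.091 and 0.09), in the 8 libraries with leukocyte transcripts (adjusted p = 0.053) and in a fit of these groups alone (adjusted p = 0.055). The ratio of ERI-R to PAC-R, which had 2 counts, was 37.4 (10 to 315; adjusted p = 0.013, and 0.059 without PAC-R 1), and that to VIN-R, which had 1 count, 76.5 (13.3 to 3060.2; adjusted p = 0.0079). The type VIII chains thus moved in opposite directions, at levels far apart. Col8a1 is shown as the largest fall among chains whose neighbour is no collagen, with capitals as above, for chr16:57754738-57754987 on the minus strand.
Col8a1: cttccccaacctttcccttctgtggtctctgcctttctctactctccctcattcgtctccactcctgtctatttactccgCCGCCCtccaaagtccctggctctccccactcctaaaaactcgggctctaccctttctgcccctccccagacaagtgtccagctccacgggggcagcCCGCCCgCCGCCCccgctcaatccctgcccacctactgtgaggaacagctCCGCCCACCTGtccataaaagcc
This stretch, 60.8% G and C, held 4 GC boxes and 1 E-box, and the E-box overlaps the last GC box.

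Types V and XI nucleate fibrils and limit their width, and among their chains Col5a1 fell and Col11a1 rose in ERI-R, while Col5a2 and Col11a2 were called in no comparison. Col5a1 (chr2:27886425-28039514) lay at 213, 103 and 97.6 CPM in Control, 104, 112 and 199 CPM in PAC-R and 99.5, 102 and 193 CPM in VIN-R. ERI-R had 8.99, 3.66 and 0.526 CPM, below all others. The log2 fold change against Control was -4.96 (SE 0.854, adjusted p = 0.0026), -6.00 with ERI-R 1 left out and -4.30 with ERI-R 3 left out. Against PAC-R it was -4.97 (SE 0.855, adjusted p = 0.0028) and against VIN-R -4.89 (SE 0.852, adjusted p = 0.0024).

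Col11a1 (chr3:114030540-114220718), which can stand in for type V chains in mixed trimers, lay at 1.66, 2.93 and 1.31 CPM in Control and at 91.4, 105 and 39.3 CPM in ERI-R. PAC-R had 2.68, 3.12 and 0.971 CPM and VIN-R 0.502, 1.28 and 1.48 CPM. The ERI-R libraries lay above the other 9 with a wide gap, including ERI-R 3. Its log2 fold changes were 5.31 against Control (SE 0.648, adjusted p = 0.00058), 5.12 against PAC-R (SE 0.641, adjusted p = 0.0007) and 6.16 against VIN-R (SE 0.678, adjusted p = 0.00033). In TPM, Col11a1 was 11.9, 41.1 and 105 times Col5a1 in ERI-R 1 to 3 and at most 0.0527 times Col5a1 in the other 9 libraries. The 105 rests on 5 counts of Col5a1 in ERI-R 3, so its size is uncertain. The stretch of Col11a1 at chr3:114030290-114030539 is shown as that of the most abundant fibrillar chain of ERI-R.
Col11a1: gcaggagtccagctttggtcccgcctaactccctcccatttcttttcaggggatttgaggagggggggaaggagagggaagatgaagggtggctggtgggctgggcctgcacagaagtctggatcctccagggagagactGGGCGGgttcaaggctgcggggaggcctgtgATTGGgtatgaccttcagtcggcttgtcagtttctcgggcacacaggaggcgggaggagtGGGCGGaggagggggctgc
It held 2 GC boxes and 1 CCAAT match and was 62.4% G and C.

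Col2a1, the main chain of cartilage fibrils, lay at 0.361, 0.335 and 0.175 CPM in Control and at 4.34, 1.60 and 5.68 CPM in ERI-R, and at most 0.274 CPM in PAC-R and VIN-R. It rose by 3.68 against Control (SE 0.617, adjusted p = 0.0023), 4.05 against PAC-R (adjusted p = 0.0017) and 4.44 against VIN-R (adjusted p = 0.0011), from a level near the floor. Col5a3 was lower in ERI-R (0.105 to 0.762 CPM) than in PAC-R (8.05, 7.33 and 3.81 CPM; log2 fold change -3.71, SE 0.920, adjusted p = 0.016), and this was lost without ERI-R 2 (adjusted p = 0.054). Against Control (0.0874 to 2.01 CPM) and VIN-R (1.77 to 3.75 CPM) it was not called. Col11a2, the partner of Col11a1, stayed between 1.08 and 2.74 CPM in all 12 libraries and Col27a1 between 0.736 and 4.31 CPM, with no call for either.

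The chains of the classical fibrils of types I and III were low and were not called in any comparison of the main fit. With the replicate block, Col3a1 was called lower in ERI-R than in PAC-R (-2.83, adjusted p = 0.023, against -2.70 and 0.1 without it). Col1a1 lay between 2.73 and 24.7 CPM, Col3a1 between 0.105 and 17.5 CPM, Col1a2 between 0 and 36.3 CPM and Col5a2 between 0 and 15.3 CPM. Their spread ran across the groups. Col1a2 was at 0.145 CPM in Control 1, 0.210 in ERI-R 3, 0.0747 in PAC-R 3 and 0 in VIN-R 3, the libraries without leukocyte transcripts, and at 1.92 to 36.3 CPM in the 8 libraries with leukocyte transcripts. Col5a2 was at 0 to 0.221 CPM in those 4 and at 1.09 to 15.3 CPM in the 8. These were the only chains of the 30 tested that were higher in each of the 8 libraries, and none was lower in each; that is 6.67%, beside 21.4% of all genes tested. The highest values of both chains and of Ptprc were in PAC-R 1 and VIN-R 2. The fibroblast gene Dcn showed the same split, at 0.175 to 2.56 CPM in the 8 and 0 to 0.0723 CPM in the 4, and Lum reached at most 0.288 CPM. Postn showed it outside ERI-R, at 1.00 to 16.2 CPM in 6 libraries and 0.148 to 0.299 CPM in the other 3. The muscle, fat and erythroid list held Fabp4 at 2.43 to 35.8 CPM in the 8 against 0.145 to 1.58 CPM in the 4, with the hemoglobin genes Hba-a1 and Hbb-bs at 0 in all 12. The source of these chains was not tested. Col5a1, the partner of Col5a2 in the common type V trimer, lay the other way round outside ERI-R, with 193 to 213 CPM in the 3 libraries without leukocyte transcripts and 97.6 to 112 CPM in the other 6. Col4a1 and Col4a2 were also highest in those libraries within Control, PAC-R and VIN-R, while within ERI-R all 3 chains were lowest in ERI-R 3.

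**Figure D3:**
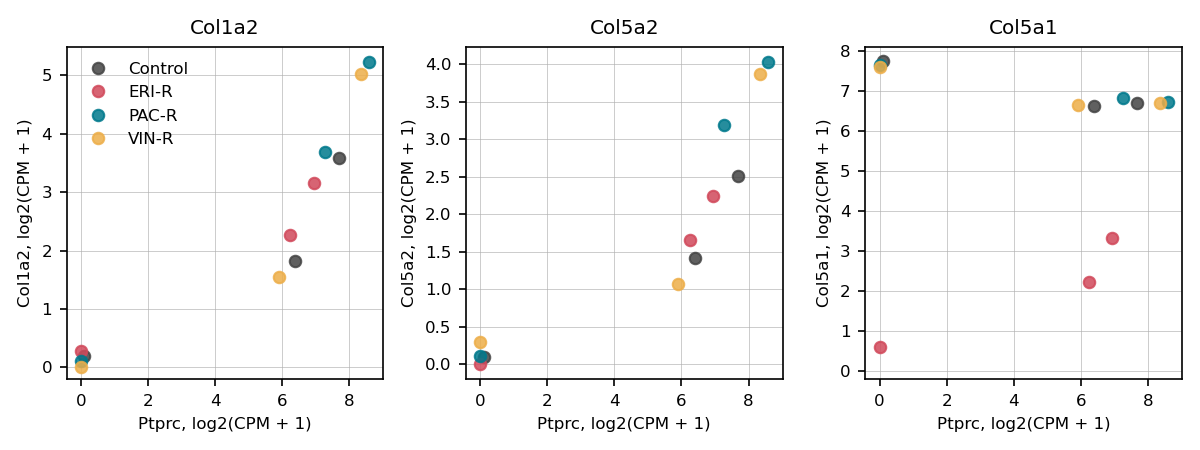
Level of Col1a2, Col5a2 and Col5a1 (log2(CPM + 1)) against that of the leukocyte gene Ptprc in the 12 libraries, coloured by line. Col1a2 and Col5a2 lie near 0 in the 4 libraries without Ptprc in every line, while Col5a1 is low in ERI-R and between 97.6 and 213 CPM in all libraries of the other lines.

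The type IX chains Col9a3 and Col9a1 rose in ERI-R from levels near the floor. They reached the filter's level in only 2 and 1 libraries outside ERI-R, so both had to differ to be tested. Col9a3 (chr2:180597790-180622189), 1 of the 3 chains of the type IX trimer that decorates cartilage fibrils, lay at 0.0723, 0.419 and 0.437 CPM in Control and at 22.2, 38.8 and 74.2 CPM in ERI-R. PAC-R had 1.53, 1.52 and 0.672 CPM and VIN-R 0.251, 0.457 and 0.591 CPM. Every ERI-R library was above the rest and ERI-R 3 was the highest. The log2 fold changes were 7.16 against Control (SE 0.762, adjusted p = 0.00037), 5.18 against PAC-R (SE 0.679, adjusted p = 0.00083) and 6.66 against VIN-R (SE 0.739, adjusted p = 0.00034).

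Col9a1 lay at 45.7, 15.8 and 16.7 CPM in ERI-R, at 0, 0.839 and 0 CPM in Control, 0.479, 1.26 and 0 CPM in PAC-R and 0, 0.274 and 0 CPM in VIN-R. The rise over Control was 6.51 (SE 1.63, adjusted p = 0.017) and 5.86 without ERI-R 1. The call was lost without Control 1 (adjusted p = 0.052) or Control 3 (adjusted p = 0.067). Without Control 2, the only Control library with counts, the fitted rise was 11.29, a value that depends on the prior count. Against PAC-R the rise was 5.47 (SE 1.53, adjusted p = 0.029), lost without ERI-R 1 (4.81, adjusted p = 0.071), PAC-R 1 (5.35, 0.11), PAC-R 2 (6.77, 0.054) or PAC-R 3 (4.87, 0.054) and without a filter (5.48, 0.054). VIN-R had 3 counts, and the ratio of ERI-R to VIN-R was 328 (112 to 1595; adjusted p = 0.0093). The third chain of the trimer, Col9a2, did not pass the filter, with 8 counts in ERI-R, 2 in Control, 5 in PAC-R and 1 in VIN-R, against 966 counts of Col9a1 in ERI-R.

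Col12a1, a fibril-surface chain of tendon and tumour stroma, lay at 118, 109.9 and 30.3 CPM in ERI-R and at 39.6, 23.0 and 25.3 CPM in Control, so ERI-R 3 overlapped Control. It was called against PAC-R (22.9, 22.7 and 25.6 CPM; log2 fold change 1.86, SE 0.583, adjusted p = 0.049) and not against Control (1.55, SE 0.578, adjusted p = 0.091) or VIN-R (9.96, 29.5 and 44.8 CPM; 1.61). The call against PAC-R was lost without ERI-R 1 or 2 or any PAC-R library (adjusted p = 0.1 to 0.14), with the replicate block (1.84, adjusted p = 0.082), with limma-voom (0.096), without a filter (0.055) and in a fit of these groups alone (0.093). The differences from Control and VIN-R were called without ERI-R 3 (2.10 and 2.15, adjusted p = 0.015 and 0.012) and in the 8 libraries with leukocyte transcripts (2.33 and 2.66, adjusted p = 0.0066 and 0.0035). Col16a1 lay between 11.3 and 80.5 CPM over all libraries and was not called.

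The transmembrane collagens split. Col17a1 (chr19:47646344-47692094), which links keratin filaments of basal epithelial cells to the basement membrane, lay at 16.5, 12.8 and 9.78 CPM in ERI-R and at 0.0914 to 0.922 CPM in the other 9 libraries. It rose by 4.48 against Control (SE 0.602, adjusted p = 0.00087), 5.10 against PAC-R (SE 0.627, adjusted p = 0.00065) and 5.85 against VIN-R (SE 0.657, adjusted p = 0.00036). Col17a1 reached the filter's level in only 1 library outside ERI-R, so it had to differ to be tested. Its stretch at chr19:47692095-47692292 on the minus strand, 198 bases, is shown as that of the transmembrane chain that rose.
Col17a1: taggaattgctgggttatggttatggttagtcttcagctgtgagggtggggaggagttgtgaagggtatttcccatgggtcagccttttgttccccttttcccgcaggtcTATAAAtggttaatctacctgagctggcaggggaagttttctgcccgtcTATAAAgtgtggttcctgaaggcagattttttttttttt
It held 2 matches to the TATA motif and none to the other 3 motifs.

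Col23a1 lay at 1.16, 3.77 and 2.71 CPM in Control, 2.30, 4.30 and 3.21 CPM in PAC-R, 0.418, 0.274 and 0.0738 CPM in VIN-R and 0.229, 0.153 and 0 CPM in ERI-R. Both ERI-R and VIN-R were below every Control and PAC-R library and overlapped each other. ERI-R was lower than Control (log2 fold change -4.14, SE 0.841, adjusted p = 0.0059; -3.53 without ERI-R 3) and than PAC-R (-4.50, SE 0.847, adjusted p = 0.0043; -3.90 with ERI-R 3 left out and -5.11 with ERI-R 1 left out). Of the chains that did not pass the filter, Col25a1 had 26, 6 and 11 counts in ERI-R 1 to 3, 1 in Control, 2 in PAC-R and 0 in VIN-R, and Col13a1 had 2 counts in all, both in ERI-R.

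Col18a1 (chr10:77052178-77166548), a basement membrane proteoglycan collagen whose end fragment is endostatin, kept a high level in every line. It lay at 494, 279 and 229 CPM in Control, 111, 125 and 172 CPM in ERI-R, 258, 307 and 560.1 CPM in PAC-R and 257, 202 and 432 CPM in VIN-R. The ERI-R libraries were the lowest 3 of the 12, yet only the difference from PAC-R was called (log2 fold change -1.46, SE 0.434, adjusted p = 0.038), and it was lost without ERI-R 1, 2 or 3 (adjusted p = 0.12, 0.12 and 0.056), PAC-R 2 (0.059) or PAC-R 3 (0.13; -1.06), without a filter (0.055), with total counts alone (0.057) and in a fit of these groups alone (0.12). Against Control it was -1.30 (SE 0.433, adjusted p = 0.061) and against VIN-R -1.12. With the leukocyte score both were called (-1.29 and -1.13, adjusted p = 0.00089 and 0.0019), as in the 8 libraries with leukocyte transcripts (-1.01 and -0.85, adjusted p = 0.025 and 0.044). The other multiplexin, Col15a1, had 26 counts over all 12 libraries.

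Of the 4 tested beaded filament chains, Col6a4 was called in all 3 comparisons with ERI-R and Col6a1 in 1. Of all genes, 19.2% were called against Control, 18.7% against PAC-R and 19.3% against VIN-R, so counts this small describe single chains and not the class. Col6a1 lay at 9.60, 9.46 and 14.4 CPM in ERI-R and at 40.2, 25.0 and 44.0 CPM in PAC-R, a log2 fold change of -1.71 (SE 0.438, adjusted p = 0.02), which was lost without ERI-R 1 or 2 (adjusted p = 0.065 and 0.077) or PAC-R 1 or 3 (0.06 and 0.055). Control (32.6, 20.1 and 9.18 CPM) and VIN-R (12.6, 9.69 and 9.30 CPM) overlapped ERI-R. Col6a4 was at 0 in all ERI-R libraries and at 0.168 to 1.11 CPM elsewhere, at least 4.80-fold lower than Control, 8.68-fold lower than PAC-R and 10.5-fold lower than VIN-R at the floor of 3 counts over the group (adjusted p = 0.015, 0.0071 and 0.0049; 0.056 against Control without Control 1). Col6a2 (1.03 to 10.6 CPM) and Col6a3 (0 to 3.45 CPM) were not called. Col6a5 had 6 counts in all and Col6a6 was listed at 0 in every library.

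**Figure D4:**
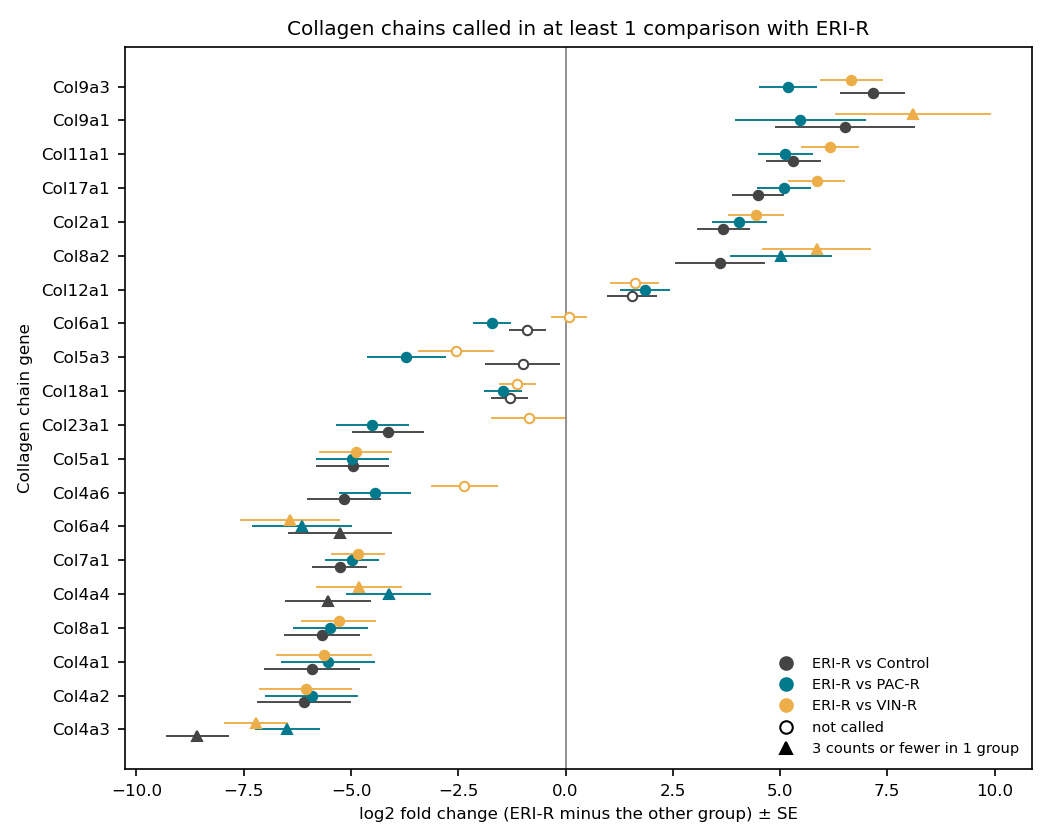
Log2 fold change of ERI-R against Control, PAC-R and VIN-R (points, with SE as bars) for the 20 chains called in at least 1 of these comparisons, ordered by the difference from Control. Open symbols were not called and triangles mark a group with 3 counts or fewer, whose fitted value depends on the prior count; 14 of the 20 chains have filled symbols in all 3 comparisons, the first 6 of them on the right of 0.

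The other chains under the filter were sparse: Col20a1 had 78 counts over the 12 libraries, Col10a1 34 (29 of them in ERI-R 1), Col14a1 31, Col28a1 21, Col19a1 12, Col22a1 11, Col24a1 5 and Col26a1 1. Between 30 and 36 of the 44 chains had counts in a library.

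The makeup of the collagen transcripts, which TPM allows to compare between genes, differed accordingly. Type IV chains made up 50.1%, 42.7% and 50.3% of the summed collagen TPM in Control and 21.7%, 20.1% and 3.78% in ERI-R. Fibril-associated chains made up 3.92%, 5.19% and 3.43% in Control and 32.1%, 30.4% and 53.0% in ERI-R, and PAC-R and VIN-R stayed at 3.92% to 7.06%. The ERI-R libraries lay outside the range of the other 9 for both classes. The sum itself was 812, 472 and 463 TPM in Control, 270.0, 205 and 107 TPM in ERI-R, 390.0, 472 and 612 TPM in PAC-R and 368, 349 and 643 TPM in VIN-R, lowest in the ERI-R libraries. Col18a1 was the most abundant chain of ERI-R 3 (30.3 TPM), where Col9a3 had 29.5 TPM, and Col4a1 was the most abundant chain of Control 1 to 3 (212, 101 and 127 TPM). No test was made of these shares.

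**Figure D5:**
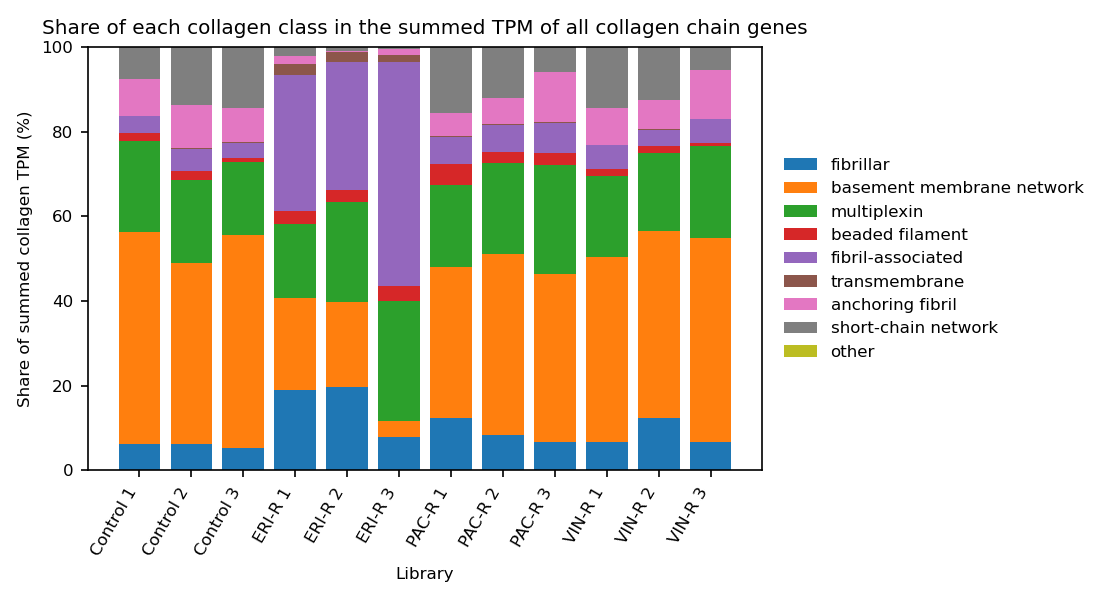
Share of each collagen class in the summed TPM of all collagen chain genes, in percent, stacked per library. Type IV chains make up 35.6% to 50.3% in the 9 libraries outside ERI-R and 3.78% to 21.7% in ERI-R, where fibril-associated chains make up 30.4% to 53.0%.

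No collagen chain was called between PAC-R and Control, VIN-R and Control or PAC-R and VIN-R by edgeR, and neither was any other of the 14226 genes (0%). At an unadjusted p under 0.05, 3, 6 and 6 of the 30 chains passed, beside 1.72%, 2.68% and 1.10% of all genes. DESeq2 called 0, 2 and 1 chains, with 0.169%, 0.253% and 0.0351% of all genes: Col4a6 and Col23a1 lower in VIN-R than in Control, and Col23a1 higher in PAC-R than in VIN-R. The libraries of PAC-R and Control did not overlap for 5 of the 30 chains (all genes 7.58%), those of VIN-R and Control for 3 (8.55%) and those of PAC-R and VIN-R for 7 (3.20%). Among them Col4a3 was lower in all PAC-R (0.767 to 1.10 CPM) and all VIN-R libraries (1.17 to 2.21 CPM) than in any Control library (3.27 to 4.55 CPM), and Col6a1 was higher in all PAC-R than in all VIN-R libraries. The highly expressed Col4a1, Col4a2, Col5a1, Col7a1, Col8a1 and Col18a1 overlapped between these 3 groups, so a difference in them was not detected at this spread.

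Genes that fold, cut and cross-link collagen also differed in ERI-R. Of 27 tested processing genes, 2 were higher and 8 lower against Control (all genes 9.51% and 9.69%), with a median log2 fold change of -0.85 where that of all genes was 0.00. P3h2, a prolyl 3-hydroxylase that acts on type IV chains, rose from 2.10 to 3.76 CPM in Control to 90.9, 53.4 and 38.1 CPM in ERI-R (4.41, SE 0.502, adjusted p = 0.00049). Serpinh1, the collagen chaperone HSP47, lay at 42.3, 41.4 and 30.6 CPM in Control and 254, 319 and 323 CPM in ERI-R (2.97, SE 0.387, adjusted p = 0.00074). PAC-R overlapped Control for Serpinh1, at 51.9, 32.5 and 21.1 CPM. VIN-R lay below every Control library, at 8.12, 15.0 and 8.71 CPM, a difference that was not called. The lysyl oxidase-like enzymes Loxl3 and Loxl1, which cross-link collagen, were lower: Loxl3 lay at 261, 222 and 169 CPM in Control and 9.52, 5.34 and 1.37 CPM in ERI-R (-5.32, SE 0.657, adjusted p = 0.0006), and Loxl1 at 42.0, 27.2 and 19.1 CPM and 0.914, 0.839 and 0 CPM (-5.58, SE 0.998, adjusted p = 0.0031). Calls in the processing list thus went in both directions, but 2 higher calls among 27 genes are no more than the share over all genes.

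Of 9 tested collagen receptors, 1 was higher and 3 were lower against Control, where 9.51% and 9.69% of all genes were, and their median was -1.13 (all genes 0.00). Adgrg1, the adhesion receptor GPR56 that binds type III collagen, rose from 0.723 to 1.76 CPM in Control to 47.5, 17.0 and 48.1 CPM in ERI-R (5.06, SE 0.648, adjusted p = 0.0007). Mrc2, an endocytic receptor that takes up collagen, fell from 119, 66.3 and 72.6 CPM to 1.83, 0.992 and 0.421 CPM (-6.28, SE 0.663, adjusted p = 0.00037). PAC-R overlapped Control for Mrc2, at 46.7, 39.7 and 101 CPM. VIN-R lay below every Control library, at 22.5, 20.6 and 42.6 CPM, and above ERI-R, with no call against Control. Itga2, the collagen-binding integrin subunit, fell from 16.3, 17.9 and 14.3 CPM to 1.22, 0.763 and 0 CPM (-4.55, SE 0.913, adjusted p = 0.0057). Of 13 tested partners of type IV collagen in basement membranes, 2 were higher and 7 lower (all genes 9.51% and 9.69%), with a median of -1.31 (all genes 0.00). The laminin chains Lamb3 (1.40 to 5.28 CPM in Control, 204, 124 and 226 CPM in ERI-R; 5.55, SE 0.596, adjusted p = 0.00038) and Lama4 (3.50 to 5.12 CPM, then 123, 88.8 and 52.3 CPM; 4.41, SE 0.483, adjusted p = 0.00042) rose. Nid1, the nidogen that bridges laminin and type IV collagen, fell from 27.9, 14.1 and 11.5 CPM to 0.305, 0.305 and 0 CPM (-6.31, SE 0.913, adjusted p = 0.0012). A lower Nid1 was not particular to ERI-R. PAC-R (3.64, 2.02 and 0.822 CPM) and VIN-R (3.10, 4.84 and 7.97 CPM) also lay below every Control library, without a call, and above ERI-R. Fbln1, fibulin-1, fell from 33.4 to 66.7 CPM to 2.06 to 5.58 CPM (-3.64, SE 0.574, adjusted p = 0.0017).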

How the data were processed

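The authors deposited RSEM gene tables for 12 libraries (3 per group) of polyadenylated RNA, prepared from 200 ng with a Kapa mRNA HyperPrep kit for paired-end reading of 76 bases, per the labels' protocols. RSEM 1.3.2, STAR 2.7.2b, cutadapt 2.4 and bcl2fastq 2.20.0.422 are listed, with GRCm38, in the submitters' processing notes, which state no roles; annotation and strandedness of counting: not given in the sources used here. Per the file headers, the authors' expected count is an unnormalized estimated count for a gene, which may hold a fraction, and their TPM is scaled by length and to a sum of 1000000. The deposited TPM was used to compare levels between genes and, for Col2a1, also between libraries. The authors' effective length was not used.

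Expected counts were rounded (15.3% of values above 0 changed). Gene symbols and positions came from GENCODE M21 (55394 of 55573 genes had a symbol); 1 symbol of the lists, Col21a1, was not matched. Genes were filtered with filterByExpr, scaled by TMM and fitted in edgeR 4.0.16 (R 4.3.3, limma 3.58.1) with glmQLFit (robust) over all 12 libraries, with a mean per group and 8 residual degrees of freedom. All 6 pairs of groups were compared, and p-values were adjusted over all 14226 genes of each comparison. Values are TMM-scaled CPM. Alternatives were DESeq2 1.42.0 (Wald test, and its size factors in edgeR), total counts alone, no filter, 1 CPM in 3 libraries, limma-voom, only the groups compared, a replicate block, leaving out each library of the groups compared and, chosen after seeing the data, the 8 libraries with Ptprc at 1 CPM or more and a leukocyte marker score as a covariate.

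The chains, classes and lists were chosen with earlier results of these data known. Fold changes with adjusted p are given for each called chain; of the lists of processing, receptor and basement membrane partner genes, up to 2 rises and 2 falls are named, the largest with a mean of at least 5 CPM. Chains under 10 CPM that were not called have their levels only. Folds against 0 counts take 3 counts over the group as the floor, and 1 to 3 counts give a CPM ratio with an exact 95% interval. The labels share replicate numbers 1 to 3 across groups but do not tie a number to a batch; over the 18 pairs of libraries with the same number, correlations of the deviations from the group means ran from -0.882 to 0.933. All 3 pairs of ERI-R with PAC-R were above 0.1 (0.617, 0.642 and 0.785), so for that comparison the numbers were taken to pair the libraries, by the data and not by the labels, and the value with the replicate block is given where it changes a call. The block was fitted over all 12 libraries with a replicate effect common to all groups, so it does not pair ERI-R with PAC-R alone. Control ran against the numbers in replicates 1 and 3 (-0.882 and -0.719 with PAC-R) and with them in replicate 2 (0.37). Values with the block are therefore a further setting and not a paired test. The calls of ERI-R against PAC-R are from the unpaired fit, and no paired fit of these groups alone was made. Replicate 3 of both lines also lacked leukocyte transcripts. A pairing by number cannot be told apart from that split here. In each of the other 5 comparisons at least 1 pair was below 0.1 and the numbers were not taken as pairs. Promoter stretches were read from RefSeq windows (GRCm38.p6) and cut at the first annotated exon base.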

Additional observations from a re-analysis of the deposited data

How the results depend on the processing

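Of the 61 called fold changes (50 of chains and 11 of the other genes named), none changed sign under the 10 settings other than leaving out a library, and 585 of 598 values stayed called, with 13 lost. Leaving out each library in turn kept 339 of 366 and lost 27. Of the 10 values followed that were not called, 17 of 100 became called, and 3 of 60 when a library was left out. These 10 include no chain of ERI-R against PAC-R. In that comparison DESeq2 and the leukocyte score each called 22 chains, 15 of them lower, with all 20 of the main fit among them. The chains gained there are not named here. Only Col4a5 in ERI-R against Control (-0.12) changed sign: 0.52 in the 8 libraries with leukocyte transcripts, 0.04 with total counts alone, and -0.51 to 0.44 when 1 library was left out (0.12 without Control 1, 0.44 without ERI-R 3), never called; the cause was not tested. Col6a4, at 0 in ERI-R, gave no value with 1 CPM in 3 libraries, in the 8 libraries or in fits of the groups compared, and Col4a3 and Col4a4 gave none against PAC-R, nor Col4a4 against VIN-R, in the latter.

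With DESeq2's Wald test 2 chains were called in VIN-R against Control and 1 in PAC-R against VIN-R, where edgeR called 0. In a fit of ERI-R and PAC-R alone 13 chains were called, not 20, with fewer samples and 3 of the 30 chains not tested. Without 1 library, the chains called numbered 13 to 18 in ERI-R against Control, 16 to 20 against PAC-R and 14 to 16 against VIN-R, and 0 in the other 3 comparisons. With the replicate block, 16, 20 and 15 chains were called in ERI-R against Control, PAC-R and VIN-R and 0 in the other comparisons. The shares of all genes called with the block, in the fit of ERI-R and PAC-R alone and without 1 library are not given here, apart from those without ERI-R 3. These counts therefore show only how far the calls held. The block lost Col12a1 against PAC-R (1.84, adjusted p = 0.082) and no other called chain, and it gained Col3a1 against PAC-R (-2.83, adjusted p = 0.023) and Col5a3 against VIN-R (-2.75, adjusted p = 0.021).

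Further values moved by over 1.5 times when a library was left out. Against Control these were Col4a4 without ERI-R 2 (-8.16), Itga2 without ERI-R 1 (-5.26) or ERI-R 3 (-3.88), Loxl1 without ERI-R 3 (-4.91), Loxl3 without ERI-R 1 (-5.98) or ERI-R 3 (-4.73) and Nid1 without ERI-R 3 (-5.68). Against PAC-R, without ERI-R 1, Col4a1 was -6.54, Col4a2 -6.86, Col5a1 -6.02 and Col8a1 -6.28; without ERI-R 3 they were -4.83, -5.24, -4.32 and -4.78, with Col4a6 at -3.77. Col4a4 was -6.77 without ERI-R 2 and Col8a2 7.69 without PAC-R 2. Against VIN-R, without ERI-R 1, Col4a1 was -6.65, Col4a2 -6.99, Col5a1 -5.94, Col8a1 -6.09 and Col9a1 7.42; without ERI-R 3 the first 4 were -4.94, -5.37, -4.25 and -4.61. Col4a4 was -7.46 without ERI-R 2 and -4.22 without VIN-R 3, Col8a2 7.68 and Col9a1 7.49 without VIN-R 3, and Col9a1 11.31 without VIN-R 2. Col4a4 without ERI-R 2, Col8a2 without PAC-R 2 or VIN-R 3 and Col9a1 without VIN-R 2 left a group at 0 counts. Those fitted values depend on the prior count and do not measure the size of a difference.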
